A study of Mus musculus with 12 samples.

Results

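The T-box genes encode transcription factors that bind DNA through a shared domain, the T-box. This account describes 8 of them, *Tbx22*, *Tbx15*, *Tbx18*, *Tbx1*, *Tbx4*, *Tbx5*, *Tbx2* and *Tbx3*, among the 54532 genes of the expression table. They were listed by symbol and matched to the Ensembl identifiers of the table, and all 8 were found and passed the filter on low values. The list was drawn up with earlier results of these libraries known, so the difference of each of the 8 genes between the groups is given as a description with no p. Where the fit over all genes places some of the 8 past its threshold, their number is given beside the share of all genes and supports nothing.

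The libraries come from mouse embryos of stage E14.5. Males carrying Prrx1-Cre, a Cre recombinase driven by a *Prrx1* enhancer that is active in limb bud mesenchyme, were crossed to females with a Cre-dependent bovine Creb5-ires-GFP allele at one copy of *Rosa26* and a Cre-dependent tdTomato allele at the other. In the 6 iCreb5 libraries the cells expressed an HA-tagged bovine Creb5, a transcription factor, together with GFP, and in the 6 tdTomato libraries they expressed the red reporter in its place. Both groups therefore carry the Cre driver and a Cre-activated transgene, and both were sorted by fluorescence before RNA extraction. The labels place the libraries in 4 litters, with 3 libraries of each group from litter 3 and 1 of each group from each of litters 4, 5 and 6. Each litter has a batch label of its own, and the effects of litter and batch cannot be told apart. The mix of fore- and hindlimbs in a sample is not stated in the labels, which bears on the limb-type genes below.

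Recovered depth was 21.6 to 49.2 M reads (M for 1000000) in the iCreb5 libraries and 9.02 to 53.3 M in the tdTomato libraries. *Creb5* itself averaged 2799 ± 214 in iCreb5 and 1803 ± 299 in tdTomato libraries (normalised count, SD, n = 6 each), and the groups did not overlap. Whether reads of the bovine transgene count towards this gene is not stated in the labels. *Prrx1*, which marks limb mesenchyme, averaged 4158 ± 575 in iCreb5 and 4986 ± 943 in tdTomato libraries. Of 12 limb mesenchyme markers tested, 1 was higher in iCreb5 and 0 lower, with a median log2 change of -0.15. All 11 leukocyte markers tested and 5 of 8 endothelium markers were higher in iCreb5, and 13 of 14 cartilage markers were lower, in each case by limma's adjusted p under 0.05. The shares over all genes tested were 3.87% higher and 2.85% lower. The summed leukocyte markers ranged from 2382 to 10755 in iCreb5 and from 580 to 1059 in tdTomato libraries. The summed endothelium markers ranged from 1897 to 4298 in iCreb5 and from 1374 to 1916 in tdTomato libraries. The summed cartilage markers ranged from 103771 to 146625 in iCreb5 and from 208561 to 450596 in tdTomato libraries. No gene of these lists was at 0 in all 12 libraries. The part of these other cells in any difference below was not tested, and in bulk samples fewer cells of a type and less RNA per cell cannot be told apart.

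The family divides by role. *Tbx22*, *Tbx15*, *Tbx18* and *Tbx1* belong to the Tbx1 subfamily, whose members pattern mesenchyme in the head, skin, somites and pharynx, and several of which act as repressors through Groucho co-repressors. *Tbx4* and *Tbx5* mark and drive the outgrowth of the hindlimb and the forelimb. *Tbx2* and *Tbx3* are repressors expressed at the anterior and posterior margins of the limb bud and in the interdigital tissue. *Tbx22* is best known from the palate: its loss in humans causes X-linked cleft palate with ankyloglossia.

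The gene on which the description turns is *Tbx22*, which lies on the plus strand of chromosome X at 107667964 to 107688978 (mm10, GENCODE M21, protein coding). Because Creb5 is a bZIP protein, of the class that binds AP-1 and CRE motifs, the letters around the first RefSeq start of *Tbx22* are shown with the single AP-1 motif found there in capitals. The window runs from 250 bases before to 50 after the start, at chrX:107667714-107668013 on the plus strand (RefSeq, GRCm38.p6).

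Tbx22 start window: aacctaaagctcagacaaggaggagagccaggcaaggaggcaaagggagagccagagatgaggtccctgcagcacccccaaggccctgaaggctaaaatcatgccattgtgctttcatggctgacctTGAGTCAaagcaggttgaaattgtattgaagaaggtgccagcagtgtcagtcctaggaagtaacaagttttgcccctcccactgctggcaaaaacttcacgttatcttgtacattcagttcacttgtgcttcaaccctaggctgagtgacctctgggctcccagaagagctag

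Both strands of the windows were searched for the AP-1 motif TGANTCA, which occurs in 7.81% of the 32851 windows of this length in the table. They were also searched for the CRE motif TGACGTCA, found in 1.79% of windows, and for its shorter form TGACG, which is part of it and is found in 20.8%. The last search was for the T-box motif GGTGTGA, found in 3.98%. This *Tbx22* window, 1 of 3 of the gene in the table, holds the AP-1 motif in capitals above, starting at position -123 from the start site, and none of the other motifs. Of the 8 T-box genes, *Tbx22*, *Tbx1*, *Tbx4* and *Tbx18* have windows in the table, 7 in all, and *Tbx2*, *Tbx3*, *Tbx5* and *Tbx15* have none. The other 2 windows of *Tbx22* hold none of the motifs. Among the remaining 4 windows the only match was 1 TGACG in each of the 2 *Tbx1* windows. These matches describe letters and are no record of binding.

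*Tbx22* values in the iCreb5 libraries were 403 at the lowest, 709 at the median and 888 at the highest (normalised count, that is, reads divided by a size factor of each library). In the tdTomato libraries they were 6.51 at the lowest, 20.0 at the median and 53.0 at the highest. The groups did not overlap, and the lowest iCreb5 library, of litter 5, stood above the highest tdTomato library, replicate 3a. That tdTomato library was also the shallowest, where 3 reads correspond to 8.38 normalised counts. In reads, *Tbx22* had 475 to 1241 in iCreb5 and 7 to 42 in tdTomato libraries, so the tdTomato values rest on few reads. On the log2(value + 1) scale the change was 5.06 ± 0.38 (SE, 95% interval 4.25 to 5.87), and it ranked 2 among the 16733 genes tested when these were ordered from the largest rise.

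Within litters, *Tbx22* was higher in iCreb5 in 4 of 4. In litter 3 the mean of its 3 iCreb5 libraries, 674, was 21.7 times the mean of the 3 tdTomato libraries. In litter 4 it was 888 in iCreb5 and 11.0 in tdTomato. Litter 5 had the smallest ratio, 13.9, with 403 in iCreb5 and 28.9 in tdTomato. Litter 6 had the largest ratio, 124, with 807 in iCreb5 and 6.51 in tdTomato. The highest ratio stands on the lowest tdTomato value, and the lowest ratio on the lowest iCreb5 value. *Tbx22* is X-linked, and *Xist*, the RNA of the inactive X (named outside the rule for named genes), was above 1000 in 2 of 6 iCreb5 and 3 of 6 tdTomato libraries and below 10 in the other 4 of the iCreb5 and 3 of the tdTomato libraries, so both groups hold libraries of either kind.

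**Figure D1:**
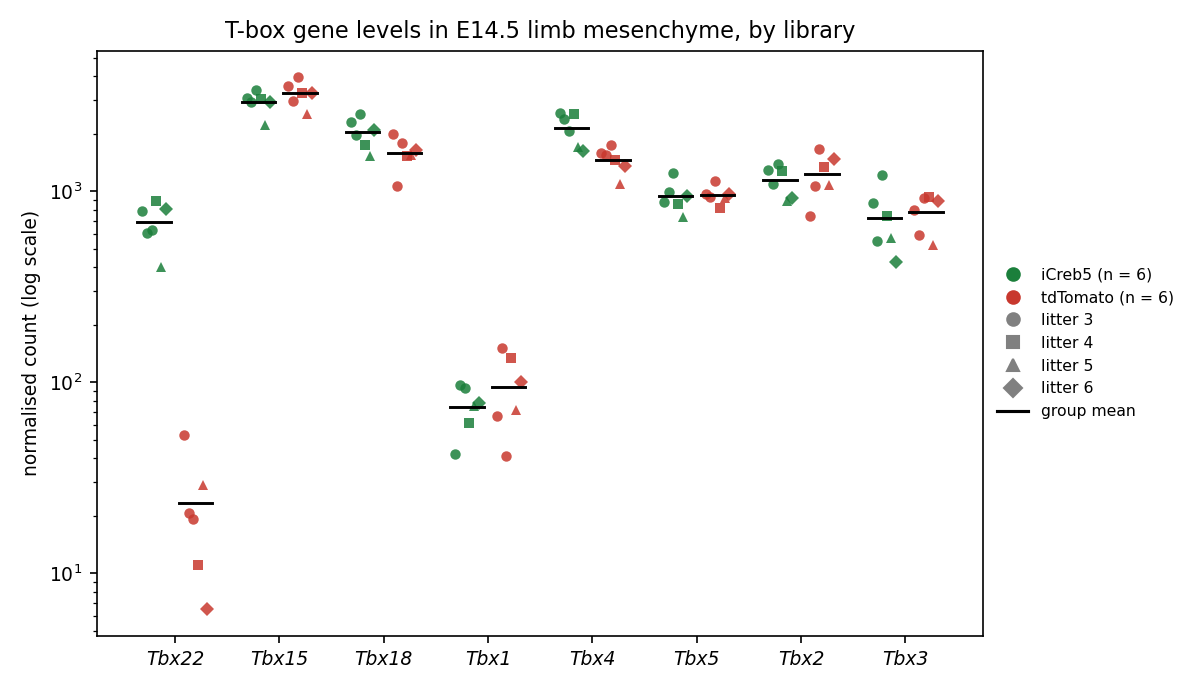
Normalised count (log scale) of each T-box gene in every library, with iCreb5 in green at the left and tdTomato in red at the right of each pair, marker shape giving the litter and black bars the group mean (n = 6 each). The *Tbx22* groups are apart (403 to 888 in iCreb5, 6.51 to 53.0 in tdTomato), and the groups of each of the other 7 genes overlap.

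Of the 8 genes, 2 passed the threshold of an adjusted p under 0.05 upward (*Tbx22* and *Tbx4*), against 3.87% of all genes tested, and 0 passed downward, against 2.85% of all genes tested. With litter as a replicate block the count of lower genes over the whole table was 728 in place of 477, and the counts among the 8 genes did not differ. The groups did not overlap for 1 of the 8, against 4.75% of all genes in either direction. Of all genes called, 57.6% were higher, and 67.7% were higher when libraries were scaled to equal totals (799 higher and 382 lower). The place of *Tbx4* in the count was lost in 11 of 23 alternative analyses, among them 7 of the 12 that leave out 1 library (iCreb5 3a, 3b, 3c or 4a, or tdTomato 4a, 5b or 6d). As the list was chosen on this contrast, nothing is read from these counts. The median log2 change of the 8 was -0.06, beside 0.00 over all genes tested.

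*Tbx15* and *Tbx18*, the closest relatives of *Tbx22* in the set, were far above it per kilobase of exon in tdTomato libraries, and the groups of both overlapped. *Tbx15*, which shapes the skeleton and the dermal pattern of the mouse, had 2225 at the lowest, 2971 at the median and 3367 at the highest in iCreb5 libraries, against 2548, 3257 and 3944 in tdTomato libraries. The stretch from 2548 to 3367 is common to both groups, and the log2 change was -0.15 ± 0.12 (95% interval -0.41 to 0.11). The iCreb5 mean was nonetheless below the tdTomato mean in each of the 4 litters, at ratios of 0.873 to 0.928. *Tbx18*, which keeps the front and back parts of the somites distinct, had 1531 at the lowest, 2029 at the median and 2540 at the highest in iCreb5 libraries, against 1059, 1591 and 1988 in tdTomato libraries. Its log2 change was 0.36 ± 0.16 (95% interval 0.03 to 0.69), and it was higher in iCreb5 in 3 of 4 litters. Other genes share 19.5% of the 31-base words of *Tbx18* transcripts, the antisense-side gene D030062O11Rik the most. Strand use in the counting is not given, so reads of the shared stretch cannot be told apart. D030062O11Rik (named outside the rule) averaged 34.1 ± 10.9 in iCreb5 and 26.5 ± 10.7 in tdTomato libraries, 1.67% of the *Tbx18* mean over all libraries.

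*Tbx1*, known from the pharyngeal arches and the heart outflow tract, was the least abundant of the other 7 genes. It had 42.1 at the lowest, 76.8 at the median and 96.5 at the highest in iCreb5 libraries, against 41.1, 85.9 and 151 in tdTomato libraries. The iCreb5 range lies inside the tdTomato range, and the log2 change of -0.26 ± 0.31 has a 95% interval of -0.92 to 0.41.

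Of the limb-type pair, *Tbx4*, the hindlimb gene, had 1622 at the lowest, 2217 at the median and 2582 at the highest in iCreb5 libraries, against 1094, 1506 and 1740 in tdTomato libraries. The groups overlap through the iCreb5 libraries of litters 5 and 6, both below the highest tdTomato value. The log2 change was 0.54 ± 0.15 (95% interval 0.23 to 0.85). Within litters *Tbx4* was higher in iCreb5 in 4 of 4, at ratios of 1.20 to 1.73. Over the fits that leave out 1 library the change ran from 0.46 to 0.62.

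*Tbx5*, the forelimb gene, had 730 at the lowest, 908 at the median and 1242 at the highest in iCreb5 libraries, against 815, 948 and 1135 in tdTomato libraries. Its log2 change was -0.04 ± 0.13 (95% interval -0.31 to 0.24), and it was higher in iCreb5 in 2 of 4 litters. Set against each other per kilobase of exon, the level of *Tbx4* was 2.28 to 4.06 times that of *Tbx5* in iCreb5 libraries (median 3.25) and 1.64 to 2.47 times in tdTomato libraries (median 2.18). These ratios overlap between the groups. *Pitx1*, which acts upstream of *Tbx4* in the hindlimb, averaged 2783 ± 656 in iCreb5 and 2366 ± 786 in tdTomato libraries, a log2 change of 0.27 ± 0.22 (limma adjusted p = 0.573), and its change was 0.72 in litter 3 and -0.17 in litters 4 to 6.

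*Tbx2* and *Tbx3*, the repressors of the limb margins, overlapped widely between the groups. *Tbx2* had 888 at the lowest, 1183 at the median and 1393 at the highest in iCreb5 libraries, against 745, 1212 and 1660 in tdTomato libraries. Its log2 change was -0.08 ± 0.18 (95% interval -0.47 to 0.31). *Tbx3*, the gene of human ulnar-mammary syndrome, had 428 at the lowest, 653 at the median and 1217 at the highest in iCreb5 libraries, against 520, 843 and 935 in tdTomato libraries. Its log2 change was -0.14 ± 0.23 (95% interval -0.63 to 0.35), and the iCreb5 group holds both its lowest and its highest library. Both genes had a change above 0 in litter 3 (0.19 for *Tbx2* and 0.14 for *Tbx3*) and below 0 in litters 4 to 6 (-0.34 and -0.42). *Tbx3* overlaps its antisense gene Tbx3os1 (named outside the rule), which averaged 131 ± 28.7 in iCreb5 and 171 ± 36.5 in tdTomato libraries, 20.1% of the *Tbx3* mean over all libraries. Other genes share 1.33% of the 31-base words of *Tbx3* transcripts, Tbx3os1 the most.

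Whether the changes differed between litter 3 and litters 4 to 6 was tested as an interaction across all genes, a contrast that did not choose the list. No interaction passed for any of the 8 genes (limma adjusted p of 0.842 or more), and the lowest unadjusted p among them was 0.161. Over all 16733 genes 0 passed (0% of genes tested), with 1012 at an unadjusted p under 0.05, which is 6.05%. *Tbx22* changed by 4.54 in litter 3 and by 5.57 in litters 4 to 6, a difference of -1.03 ± 0.70 (SE).

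**Figure D2:**
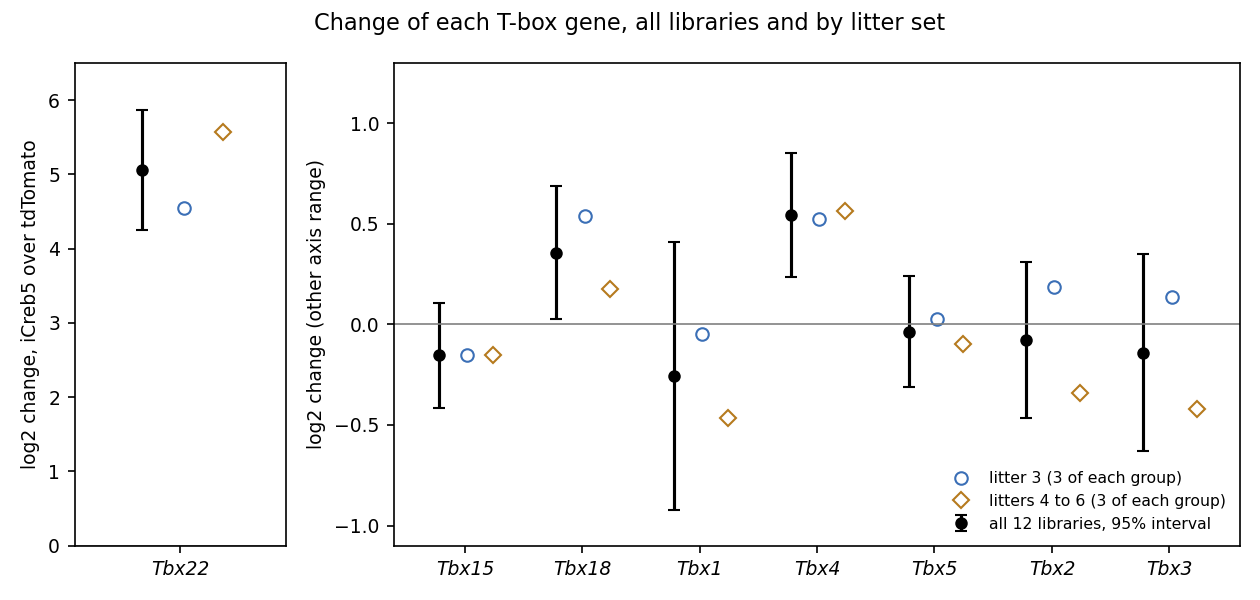
Log2 change of each T-box gene (iCreb5 over tdTomato) over all 12 libraries with its 95% interval (black), in litter 3 (blue circle) and in litters 4 to 6 (brown diamond), with *Tbx22* on its own axis. *Tbx22* lies at 4.54 and 5.57 in the litter sets, *Tbx4* at 0.52 and 0.56, while *Tbx2* and *Tbx3* lie on both sides of 0.

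Levels of different genes were compared per kilobase of exon. In tdTomato libraries the order was *Tbx15*, *Tbx4*, *Tbx2*, *Tbx18*, *Tbx5*, *Tbx3*, *Tbx1* and *Tbx22*. The ranges of *Tbx4*, *Tbx2*, *Tbx18* and *Tbx5* overlapped from each to the next, and the steps from *Tbx15* to *Tbx4*, from *Tbx5* to *Tbx3*, from *Tbx3* to *Tbx1* and from *Tbx1* to *Tbx22* separated all libraries. In iCreb5 libraries *Tbx22* stood between *Tbx5* and *Tbx3*, and its range overlapped with both. There only the step from *Tbx3* to *Tbx1* separated all libraries. *Tbx22* averaged 124 ± 31.9 per kilobase in iCreb5 and 4.19 ± 2.99 in tdTomato libraries, beside 110 ± 43.1 and 117 ± 27.0 for *Tbx3* and 201 ± 36.9 and 204 ± 22.3 for *Tbx5* (SD, n = 6, iCreb5 first). Among the genes tested it ranked 7632 by level per kilobase in iCreb5 and 15912 in tdTomato libraries.

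Summed per kilobase, the 8 genes reached 2611 ± 370 in iCreb5 and 2326 ± 298 in tdTomato libraries. Without *Tbx22* the sums were 2487 ± 354 in iCreb5 and 2322 ± 299 in tdTomato. *Tbx22* made up 4.73 ± 1.06% of the sum in iCreb5 and 0.184 ± 0.131% in tdTomato libraries. *Tbx15* made up 29.9 ± 1.45% in iCreb5 and 37.2 ± 1.42% in tdTomato, and *Tbx4* 24.2 ± 3.27% in iCreb5 and 18.5 ± 1.88% in tdTomato. By mean level *Tbx22* was thus the sixth of the 8 in iCreb5 libraries, above *Tbx3*, whose range overlaps its own, and *Tbx1*.

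**Figure D3:**
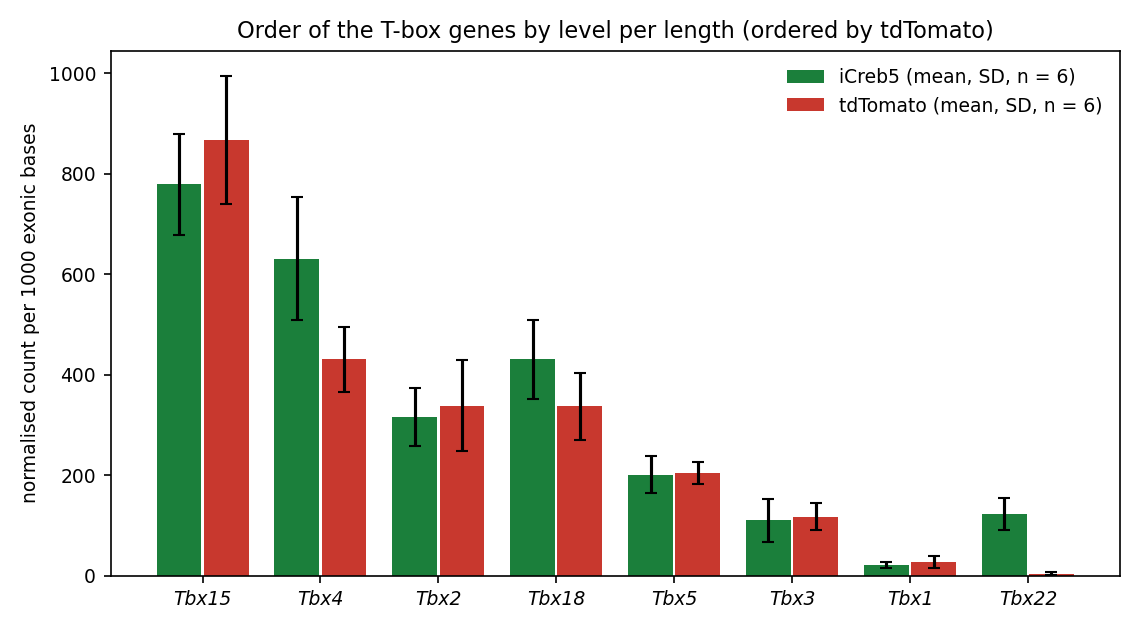
Mean level per kilobase of exon with SD (n = 6 each), iCreb5 in green left of tdTomato in red, in the order of the tdTomato means. *Tbx22* is last in tdTomato (4.19) and level with *Tbx3* in iCreb5 (124 and 110), while *Tbx15* leads in both groups.

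Deviations of each library from its group mean were compared between the genes, as a description over 12 libraries that share depth and litter. *Tbx15* moved with *Tbx5* (Pearson r = 0.69), *Tbx18* (r = 0.67), *Tbx4* (r = 0.67) and *Tbx3* (r = 0.66). Over both groups *Tbx22* had r from -0.51 (with *Tbx2*) to 0.27 (with *Tbx18*) with the other 7, and -0.40 with *Tbx1*. Its tdTomato values rest on 7 to 42 reads. On the log2(value + 1) scale they ran from 2.91 to 5.76, and its iCreb5 values from 8.66 to 9.80. The wider tdTomato scatter thus weighs more in each r of *Tbx22* over both groups. Within a group r rests on 6 libraries, which leaves it imprecise, and a difference in r between the groups was not tested. With *Tbx15*, *Tbx22* had r = 0.73 within the 6 iCreb5 libraries and r = -0.04 within the 6 tdTomato libraries. With *Tbx2* it had r = 0.48 within iCreb5 and r = -0.79 within tdTomato libraries. With *Tbx4* and *Tbx18* it had r = 0.46 and 0.43 within iCreb5 and r = 0.07 and 0.23 within tdTomato libraries. Among 13467 genes with a mean of at least 50, the 5 whose deviations were most like those of *Tbx22* were *Slain1* (r = 0.894), *Baalc* (r = 0.876), *Ufl1* (r = 0.849), *Zfp763* (r = 0.843) and 2210418O10Rik (r = 0.840). Their log2 changes between the groups were 0.35, -0.80, -0.15, 0.28 and -0.05, so any likeness is in the scatter of libraries, not in the change. These 5 are the highest of 13467 values of r over 12 libraries, and whether r this high exceeds chance was not tested.

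The remaining T-box genes were low in these cells, apart from *Mga*. *T*, *Tbx10*, *Tbx19* and *Tbx20* did not pass the filter on low values. Of the 5 tested, 0 rose, beside 3.87% of all genes tested, and 0 fell, beside 2.85%. *Mga*, a large dual-specificity repressor, averaged 892 ± 224 in iCreb5 and 962 ± 352 in tdTomato libraries (log2 change -0.06). *Tbr1* averaged 26.9 ± 14.7 in iCreb5 and 12.2 ± 3.59 in tdTomato, *Eomes* 17.6 ± 12.8 and 11.3 ± 8.25, *Tbx6* 10.4 ± 5.73 and 5.18 ± 4.79, and *Tbx21* 17.1 ± 13.9 and 10.8 ± 7.40. The median log2 change of the 5 tested was 0.78, which comes from the 4 genes with means below 30 and whose adjusted p ran from 0.269 to 0.745.

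Other genes listed under limb type moved in both directions. Of 11 tested, 2 were higher, beside 3.87% of all genes tested, and 3 lower, beside 2.85%. The other 6 did not pass the threshold (median log2 change of the list -0.10). *Isl1*, which acts upstream of hindlimb outgrowth, had 696 at the lowest, 881 at the median and 1009 at the highest in iCreb5 libraries, against 100, 127 and 209 in tdTomato libraries. It rose by 2.69 ± 0.18 on the log2 scale (limma adjusted p = 3.44e-07), and by 2.96 in litter 3 and 2.43 in litters 4 to 6. *Nr2f1*, an orphan nuclear receptor, averaged 293 ± 63.7 in iCreb5 and 95.4 ± 43.8 in tdTomato, a rise of 1.72 ± 0.29 (adjusted p = 0.00147). Its relative *Nr2f2* averaged 852 ± 176 in iCreb5 and 815 ± 65.1 in tdTomato (log2 change 0.04).

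The 3 limb-type genes that fell are neighbours in the HoxC cluster. *Hoxc4* averaged 78.6 ± 21.2 in iCreb5 and 166 ± 36.8 in tdTomato libraries, a log2 change of -1.08 ± 0.22 (adjusted p = 0.00516, limma). *Hoxc5* averaged 165 ± 35.2 in iCreb5 and 305 ± 75.5 in tdTomato (-0.87 ± 0.20, adjusted p = 0.0141). The *Hoxc4* call was lost in litters 4 to 6 alone (-0.76, limma adjusted p = 0.188). The *Hoxc5* call was lost in litter 3 alone (-0.88, limma adjusted p = 0.148) and in litters 4 to 6 alone (-0.86, limma adjusted p = 0.130). *Hoxc6*, named after its values were seen, averaged 108 ± 30.5 in iCreb5 and 196 ± 56.7 in tdTomato (-0.85 ± 0.23, adjusted p = 0.0366). The *Hoxc6* call was lost on leaving out any of 7 libraries, iCreb5 4a, 5 or 6 or tdTomato 3a, 3b, 5b or 6d, with log2 changes of -0.72 to -0.88 in those fits, and also with equal totals and with no filter on low values. That call was lost in litter 3 alone and in litters 4 to 6 alone as well. *Hoxc10*, the hindlimb gene of the same cluster and also named after its values were seen, averaged 509 ± 99.6 in iCreb5 and 547 ± 105 in tdTomato (-0.10).

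Of 11 genes tested that T-box factors are known to regulate, 0 passed the limma threshold in either direction (median 0.16). The shares over all genes tested were 3.87% upward and 2.85% downward. Of these 11 genes, 3 had an unadjusted p under 0.05. On the recovered reads edgeR called 1 higher and DESeq2 2 higher. With litter as a replicate block 2 rose (*Fgf10* and *Gja5*), and the same 2 rose without iCreb5 replicate 5. *Fgf10*, the limb target of *Tbx4* and *Tbx5*, averaged 1209 ± 286 in iCreb5 and 811 ± 151 in tdTomato. Its log2 change of 0.56 ± 0.18 had a limma adjusted p of 0.0778, and of 0.020 with litter as a replicate block. *Gja5*, a gap-junction gene that *Tbx5* activates in the heart (named after its values were seen), averaged 84.5 ± 60.9 in iCreb5 and 21.5 ± 8.07 in tdTomato (adjusted p = 0.126, and 0.021 with the block). *Gja5* is also expressed in arterial endothelium, and 5 of 8 endothelium markers were higher in iCreb5; their part in it was not tested. The abundant *Gja1*, a target that *Tbx2* represses, averaged 5871 ± 708 in iCreb5 and 6924 ± 1177 in tdTomato (log2 change -0.23, adjusted p = 0.361).

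Of 16 partners and co-repressors of T-box factors tested, 1 rose, beside 3.87% of all genes tested, and 0 fell, beside 2.85% (median 0.02). *Tle1*, a Groucho co-repressor, had 2790 at the lowest, 3349 at the median and 3660 at the highest in iCreb5 libraries, against 1750, 2060 and 2423 in tdTomato libraries. The groups did not overlap, and it rose by 0.69 ± 0.11 (limma adjusted p = 0.000954), by 0.71 in litter 3 and 0.66 in litters 4 to 6. *Hdac2*, a histone deacetylase, averaged 12941 ± 1524 in iCreb5 and 12378 ± 855 in tdTomato (log2 change 0.06), and its relative *Hdac1* averaged 6868 ± 473 in iCreb5 and 7301 ± 292 in tdTomato (-0.09).

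Because *Tbx22* is a palate gene, regulators of palate mesenchyme were listed. Of 15 tested, 2 rose, beside 3.87% of all genes tested, and 4 fell, beside 2.85%. The other 9 did not pass (median of the list -0.06). With litter as a replicate block 5 fell, *Msx1* being the added one. The 2 that rose were *Osr2* and *Meox2*. *Osr2*, an odd-skipped factor of palate and joint (named after its values were seen), averaged 6310 ± 352 in iCreb5 and 3115 ± 334 in tdTomato (log2 change 1.02 ± 0.09, limma adjusted p = 4.9e-06). *Meox2*, a homeobox gene of limb muscle and palate, averaged 8188 ± 898 in iCreb5 and 3636 ± 494 in tdTomato (1.18 ± 0.11, adjusted p = 8.38e-06). Neither gene's groups overlapped.

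The genes of this list that fell are homeobox genes of cartilage and bone as well as palate, with 1 Wnt ligand. *Dlx5* averaged 318 ± 106 in iCreb5 and 779 ± 112 in tdTomato (log2 change -1.33 ± 0.19, limma adjusted p = 0.000289). *Dlx6*, its partner in the genome, averaged 6.40 ± 5.23 in iCreb5 and 28.1 ± 11.8 in tdTomato (-2.16 ± 0.48, adjusted p = 0.0111). It rests on 2 to 19 reads in iCreb5 and 13 to 49 in tdTomato libraries. The *Dlx6* call was lost in litters 4 to 6 alone and without tdTomato 3a and 5b together. *Barx1* averaged 122 ± 41.6 in iCreb5 and 351 ± 72.3 in tdTomato (-1.56 ± 0.24, adjusted p = 0.000583). *Wnt5a*, named after its values were seen, averaged 2273 ± 536 in iCreb5 and 3411 ± 548 in tdTomato (-0.60 ± 0.15, adjusted p = 0.0263). The *Wnt5a* call was lost on leaving out any of 7 libraries, iCreb5 3b, 4a or 6 or tdTomato 3a, 3c, 4a or 6d, with log2 changes of -0.54 to -0.59 in those fits, and also with equal totals. That call was lost in litter 3 alone as well. Cartilage markers fell in the same libraries, 13 of 14 with a median of -1.56, and their part in these falls was not tested. *Osr1* averaged 3385 ± 268 in iCreb5 and 3542 ± 473 in tdTomato (-0.06). *Msx1* averaged 1442 ± 505 in iCreb5 and 2161 ± 697 in tdTomato (-0.60 ± 0.23, adjusted p = 0.171, and 0.0386 with the block).

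**Figure D4:**
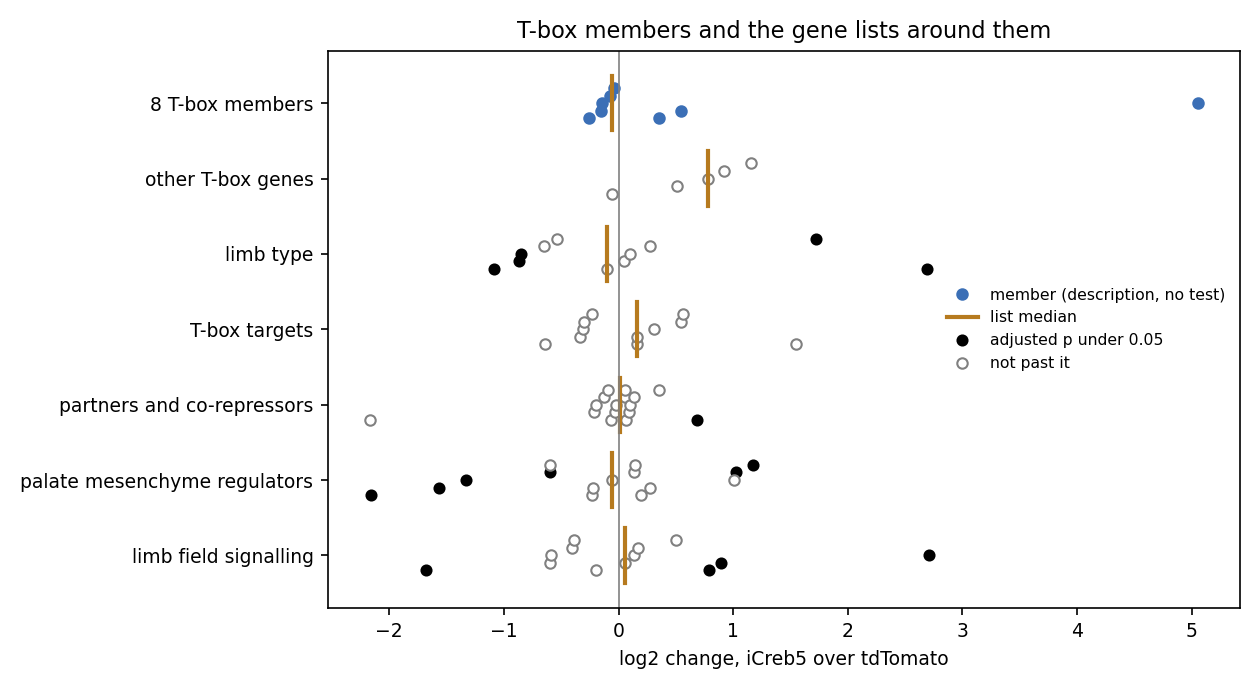
Log2 change (iCreb5 over tdTomato) of the T-box genes in blue and of the genes tested in each surrounding list, filled black where the adjusted p was under 0.05 and open otherwise, with the median of each list as a brown bar. *Tbx22* at 5.06 stands outside the range of the other genes plotted, and each list median except that of the other T-box genes (0.78) lies between -0.10 and 0.16.

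Signalling genes of the limb margins, where *Tbx2* and *Tbx3* act, were listed as well. Of 13 tested, 3 were higher, beside 3.87% of all genes tested, and 1 lower, beside 2.85% (median of the list 0.06). With litter as a replicate block 3 were lower, *Bmp2* and *Msx1* being the added ones. Leaving out iCreb5 replicate 5 also gave 3 lower, and leaving out iCreb5 3a or tdTomato 3b gave 2. *Sall3*, a spalt zinc finger, had 90.8 at the lowest, 141 at the median and 244 at the highest in iCreb5 libraries, against 13.96, 20.4 and 34.0 in tdTomato libraries. It rose by 2.71 ± 0.29 (limma adjusted p = 3.01e-05), by 3.13 in litter 3 and 2.29 in litters 4 to 6. *Hand2*, which sets posterior limb identity, averaged 772 ± 229 in iCreb5 and 411 ± 89.5 in tdTomato (0.89 ± 0.19, adjusted p = 0.00787). The *Hand2* call was lost in litter 3 alone (0.81, limma adjusted p = 0.0792). *Grem1*, a BMP antagonist, averaged 892 ± 167 in iCreb5 and 525 ± 144 in tdTomato (0.79 ± 0.18, adjusted p = 0.0111). The *Grem1* call was lost in litters 4 to 6 alone (0.71, limma adjusted p = 0.143). *Fgf8*, a ligand of the limb ridge ectoderm, averaged 6.93 ± 1.83 in iCreb5 and 27.4 ± 18.7 in tdTomato. Its change was -1.68 ± 0.41 (limma adjusted p = 0.0192), at a level near that of a few reads. The filter on low values asked for at least 10 in at least 6 libraries. *Fgf8* ran from 4.6 to 9.1 in iCreb5 and from 12.4 to 64.2 in tdTomato libraries. It was thus tested only because the tdTomato libraries, the higher group, reached the filter, and nothing is read from its call. The *Fgf8* call was lost without that filter, in litter 3 alone (-1.89) and in litters 4 to 6 alone (-1.47). It was also lost without tdTomato 3a and 5b together. *Bmp7* averaged 1876 ± 279 in iCreb5 and 1816 ± 353 in tdTomato (0.06).

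The nearest tested gene on either side of each T-box gene was examined for change in the same region. Of these 14 genes 0 rose, beside 3.87% of all genes tested, and 2 fell, beside 2.85%. The other 12 did not pass (median of the 14 genes -0.27). Next to *Tbx22* lie *Itm2a*, 265 kb away, and 2610002M06Rik, 93.8 kb away. *Itm2a*, a membrane protein gene of cartilage and T cells, changed by -0.28 ± 0.15 (limma adjusted p = 0.348), and 2610002M06Rik by 0.24 ± 0.12 (adjusted p = 0.331), so neither passed the threshold.

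The clearest neighbour change was next to *Tbx2*. The noncoding gene 2610027K06Rik lies on the minus strand 0.328 kb before the start of *Tbx2* on chromosome 11, at 85791661 to 85832223 (mm10). It had 16.7 at the lowest, 20.8 at the median and 23.6 at the highest in iCreb5 libraries, against 30.3, 60.8 and 77.6 in tdTomato libraries, with no overlap. It fell by 1.37 ± 0.28 on the log2 scale (limma adjusted p = 0.0052), whereas *Tbx2* itself changed by -0.08. The change of 2610027K06Rik was -1.61 in litter 3 and -1.13 in litters 4 to 6, where it did not pass (limma adjusted p = 0.228). *Nt5e*, 596 kb from *Tbx18*, averaged 1304 ± 303 in iCreb5 and 2127 ± 528 in tdTomato (-0.70 ± 0.19, adjusted p = 0.0364). The *Nt5e* call was lost on leaving out any of 7 libraries, iCreb5 3b, 5 or 6 or tdTomato 3a, 3b, 4a or 6d, with log2 changes of -0.57 to -0.70 in those fits. That call was lost in litter 3 alone as well (-0.48, limma adjusted p = 0.242). *Tbx2* and *Tbx4* are themselves neighbours, 44.5 kb apart, and *Tbx4* changed by 0.54 beside -0.08 for *Tbx2*.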

How the data were processed

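RNA of 12 sorted limb mesenchyme samples was sequenced as polyA RNA with Nextera XT libraries, per the labels' protocols. FastQC, STAR, Salmon, DESeq2 and the build mm10 appear, with no version, among the tools and builds of the submitters' processing notes. The deposited table holds a signal: the count of each gene over a size factor for its library, as read from the deposited values, since 100% of values were whole multiples of 1 unit within a tolerance of 1e-06. That unit gave the reads and depths of 9.02 to 53.3 M (M for 1000000) per library. The value of 3 reads lies between 1.48 and 8.38 units, and covers counting error only. Of the 8 columns of a second table, none matches a labelled sample, and they were not used here. The labels do not state strand use or how transgene reads were handled.

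The 16733 of 54532 genes with at least 10 in at least 6 libraries were tested with limma 3.58.1 in R 4.3.3 (eBayes with trend, two-sided tests), log2(value + 1) as the scale, no covariate and Benjamini-Hochberg adjustment over all genes tested. The added 1 understates the change of low genes. The threshold was an adjusted p under 0.05. The plan allowed for counts or normalised values, and the test for normalised values was used. Run on the recovered reads, edgeR 4.0.16 called 641 genes higher and 471 lower, and DESeq2 1.42.0 called 922 higher and 715 lower. On simulated data the fit was tested for recovery of known changes. The labels do not say whether samples are single embryos or pools, and p-values measure the spread between these 12 samples.

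The set numbers of the labels, taken as litters, pair the groups. The design text speaks of 6 litters and the labels give 4 sets. Every result by litter, with the litter block and the interaction, rests on this reading. Deviations of same-litter libraries from their group means correlated by 0.129 in litter 3, 0.154 in litter 4, 0.346 in litter 5 and 0.000309 in litter 6 over 16733 genes.

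Symbols, positions and exon lengths came from GENCODE M21 (54409 of 54532 identifiers matched). Levels per kilobase divide by the merged exon length, and start windows are from RefSeq. Genes named are the 8 members, the other T-box genes, from each list the 4 or fewer largest changes that passed and the 2 most abundant genes that did not, the nearest tested neighbours, the 5 most like *Tbx22*, *Creb5* and *Prrx1*. Others are marked where they occur. Some genes of the lists are not reported here and were left out of the list counts. The members and the lists were chosen with earlier results of these data known.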

Additional observations from a re-analysis of the deposited data

Results flagged for a closer look

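In groups of 6 libraries, a library was singled out where its gap to the next value as a share of its group's range (the ratio below) exceeded Dixon's 95% critical value. Over 56 genes in both groups this gave 5 of 112 cases (4.46%), and chance alone gives about 1 in 20. None of the 8 T-box genes is among them. *Hand2* stood highest in iCreb5 replicate 5 at 1205, with the others at 597 to 812 (ratio 0.6458). *Hdac1* stood highest in iCreb5 replicate 3b at 7759, with the others at 6385 to 6866 (ratio 0.6496). *Fgf8* stood highest in tdTomato replicate 3a, the shallowest library, at 64.2, with the others at 12.4 to 27.4 (ratio 0.7102). The other 2 cases are both tdTomato replicate 5b: 2610002M06Rik at 942 with the others at 585 to 709 (ratio 0.6512) and *Cep162* at 180 with the others at 332 to 371 (ratio 0.7952).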

How the results depend on the processing

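The log2 change of *Tbx22* was 4.54 to 5.57 over 23 alternatives, all refits of the values on which the list was chosen, and is given as a description. The number of T-box genes past the threshold upward, likewise a description, was 1 in place of 2 with no filter on low values, in litter 3 alone, in litters 4 to 6 alone and without tdTomato 3a and 5b together. Leaving out each library in turn gave 1 to 2 higher and 0 lower. Over all genes, the count higher was 648, but 395 in litter 3 alone and 320 in litters 4 to 6 alone, and the count lower was 477, but 728 with litter as a replicate block and 292 in litter 3 alone. Of 64 genes tested in the 5 lists apart from the other T-box genes, 8 were higher and 8 lower. The shares over all genes tested were 3.87% higher and 2.85% lower. The count lower in the 5 lists was 4 in litter 3 alone, 5 in litters 4 to 6 alone and 4 without tdTomato 3a and 5b together. The litter subsets hold fewer samples, and for the other settings the cause was not tested. In the fits with litter as a replicate block the calls of *Msx1* and *Fgf10* among the genes named by the rule differed, and *Gja5* and *Bmp2* also passed. For the 48 genes named by the rule outside the 8, 1063 of 1094 values kept their side of the threshold, 24 lost it and 7 gained it. No called value changed sign in any alternative. Depth limits *Tbx22* in tdTomato libraries (7 to 42 reads) and the low T-box genes in both groups. It limits *Dlx6* (2 to 19 reads) and *Fgf8* (4 to 18 reads) in iCreb5 libraries. Over the 12 libraries 3 reads lie between 1.48 and 8.38 normalised counts.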
